A study of Mus musculus with 18 samples.

Results

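The nuclear genes of mitochondrial oxidative phosphorylation were followed in 3 progenitor populations of mouse bone marrow. The members were every gene whose symbol begins with Nduf, Uqcr, Atp5, Cox4, Cox5, Cox6, Cox7 or Cox8, or is Sdha, Sdhb, Sdhc or Sdhd. This rule gave 90 genes, all of them listed in each of the 3 expression tables, out of 19710 genes in the MPP table, 19710 in the CD115- CDP table and 18378 in the CLP table. They were 36 subunits of complex I, 7 complex I assembly factors (Ndufaf1 to Ndufaf7), 4 subunits of complex II, 8 of complex III, 18 genes of complex IV, 15 of complex V and 2 other genes, Atp5s and Atp5sl. Ndufa4 and its paralogue Ndufa4l2 were placed with complex IV. The rule leaves out the electron carriers Cyc1 and Cycs, which are given separately, and the subunits encoded by the mitochondrial genome were not analysed here.

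Oxidative phosphorylation couples electron flow through complexes I to IV of the inner mitochondrial membrane to proton pumping, and complex V, the ATP synthase, uses the resulting gradient to make ATP. Complex I oxidises NADH, complex II oxidises succinate without pumping protons, complex III passes electrons to cytochrome c and complex IV reduces oxygen. Several complex IV subunits exist as paralogous isoforms, one expressed in most tissues and another enriched in heart, skeletal muscle, lung or testis, while many promoters of this gene group carry sites for the factors NRF1, GABP and YY1.

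Cells were sorted from C57BL/6 mice of 6 to 8 weeks. WT mice were Trim33 fl/fl. In KO mice (Trim33-/- in the labels) Cre was used to remove exons 2 to 4 of Trim33, which shifts the reading frame. The study examined its progenitors in Trim33 fl/fl Cre-ERT2 mice, in which tamoxifen induces deletion throughout the body, and its supplement describes the progenitor RNA-seq as coming from tamoxifen-treated mice of both genotypes. With systemic deletion, a response of the progenitors themselves and a response to other cells of the animal cannot be told apart. The multipotent progenitors (MPP) were Lin- cells gated as CD34+, FLT3+, Sca-1+ and CD117+. The common dendritic cell progenitors without CD115 (CD115- CDP) were CD117int and FLT3+, with no CD11c, CD127 or CD115. The common lymphoid progenitors (CLP) were CD127+, FLT3+, CD117+, Sca-1+ and CD11c-. Each of the 6 groups held 3 libraries, described as biological repeats, which gave 18 libraries in all, and the values were FPKM (estimated read counts divided by transcript length and library size).

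The FPKM of a library summed to between 448367 and 588035. Trim33 itself read 9.71, 11.7 and 4.80 FPKM in the KO-labelled MPPs against 8.78 to 10.4 in WT MPPs, so its level did not separate the MPP genotypes, and the gene-level value also covers the exons that are not removed. It read 4.03 to 9.64 against 8.27 to 15.2 in CD115- CDPs and 5.60 to 7.66 against 7.01 to 12.4 in CLPs. Libraries are therefore called KO-labelled. Of the sort markers, Il7r (CD127) was highest in the CLP libraries, at 32.6 to 63.0 FPKM, and Csf1r (CD115) transcripts were present in the CD115- CDPs, at 39.1 to 137 FPKM in WT and 9.24 to 37.2 in KO-labelled libraries. Replicate 3 of the CD115- CDPs stood apart in both genotypes: the 8 neutrophil markers summed to 4179.9 (WT) and 3939.5 (KO-labelled) FPKM there, against 628 to 988 in the other 4 libraries of that population. In WT MPPs the 10 erythroid markers summed to 381 to 406 FPKM, against 33.3 to 60.6 in KO-labelled MPPs. In such bulk samples, fewer cells of a type and less RNA per cell cannot be told apart. Neither can marker transcripts of the sorted progenitors themselves and those of other cells. The monocyte list includes Csf1r and Ly6c2, and the study counts Ly6c2 among its plasmacytoid dendritic cell genes.

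Promoter sequences were available for 75 of the 90 members from RefSeq (build GRCm38.p6), as 81 windows that run from 250 bases before to 50 bases after a transcription start. The NRF1 motif, GCGCA and GCGC separated by any 1 base and searched on both strands like the others, occurred in 24.7% of the member windows, 10.1% of the windows of genes averaging 0.5 FPKM or more in MPPs and 4.6% of all windows. The YY1 motif AAGATGGC occurred in 14.8%, 4.5% and 2.7%, the GABP motif CCGGAAG in 21.0%, 17.9% and 8.9%, and the oestrogen-related receptor motif TCAAGGTCA in 2.5%, 0.3% and 0.4%, in the same order. The windows of 4 members named in the results below are printed 5′ to 3′ in the direction of the gene, with matches to any of these motifs, on either strand, in capitals. No window was available for Cox6a2. Of the 4, Cox6a1 and Sdhd were called in none of the main comparisons, and no motif was tested against the results. Cox6a1 (chr5:115348909-115349208, minus strand), the widely expressed partner of Cox6a2, held a pair of NRF1 matches and a GABP match. Sdhd (chr9:50603800-50604099, minus strand), a membrane anchor of complex II, held NRF1, GABP and oestrogen-related receptor matches. The assembly factor Ndufaf4 (chr4:24897833-24898132, plus strand) held an NRF1 match, and the window of its partner Ndufaf3 (chr9:108567387-108567686, minus strand) held none of the 4 letter strings.
Cox6a1: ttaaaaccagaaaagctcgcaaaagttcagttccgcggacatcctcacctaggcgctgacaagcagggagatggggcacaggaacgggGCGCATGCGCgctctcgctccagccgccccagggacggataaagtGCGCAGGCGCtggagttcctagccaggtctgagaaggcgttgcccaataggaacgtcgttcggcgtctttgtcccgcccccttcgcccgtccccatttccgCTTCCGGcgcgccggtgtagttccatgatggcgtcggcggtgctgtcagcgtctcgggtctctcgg
Sdhd: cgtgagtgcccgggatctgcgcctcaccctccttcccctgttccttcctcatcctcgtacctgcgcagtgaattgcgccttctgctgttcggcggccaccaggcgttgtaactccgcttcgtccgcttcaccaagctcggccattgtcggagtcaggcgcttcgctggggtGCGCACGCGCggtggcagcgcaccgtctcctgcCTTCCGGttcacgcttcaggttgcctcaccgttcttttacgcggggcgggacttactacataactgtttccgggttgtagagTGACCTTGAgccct
Ndufaf4: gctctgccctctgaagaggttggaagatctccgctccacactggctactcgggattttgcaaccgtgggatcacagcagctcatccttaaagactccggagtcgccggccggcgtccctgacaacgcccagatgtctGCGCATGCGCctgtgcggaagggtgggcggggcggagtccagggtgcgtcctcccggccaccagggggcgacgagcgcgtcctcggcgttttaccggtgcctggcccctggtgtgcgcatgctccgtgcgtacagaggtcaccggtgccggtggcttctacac
Ndufaf3: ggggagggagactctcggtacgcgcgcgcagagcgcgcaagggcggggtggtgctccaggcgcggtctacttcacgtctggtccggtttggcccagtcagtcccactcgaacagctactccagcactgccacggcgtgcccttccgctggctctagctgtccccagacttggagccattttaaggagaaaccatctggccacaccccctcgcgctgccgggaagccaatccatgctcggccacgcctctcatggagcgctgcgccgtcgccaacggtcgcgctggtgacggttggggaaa

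In every population the group was expressed at a high level, with the lowest medians in complex I and the highest in complex V. Together the 90 genes took 1.86% to 2.64% of the summed FPKM of a library. In WT MPPs the median over the genes of a complex, which compares genes per length, was 70.4 ± 4.58 FPKM for complex I (SD, n = 3 libraries), 89.0 ± 6.33 for complex II, 113 ± 9.87 for complex III, 135 ± 9.34 for complex IV and 191 ± 25.0 for complex V. This held for the means of all 6 groups. Complexes II and III were not separated beyond their spread in CLPs, where WT libraries read 91.6 ± 9.73 and 90.0 ± 9.60. The assembly factors lay far below the subunits, at 9.86 ± 0.441 FPKM in WT MPPs.

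The most abundant member was Atp5b, the catalytic beta subunit of the ATP synthase, with a mean of 602 FPKM over the 9 WT libraries and a range of 539 to 668. Atp5g2, a gene for the membrane ring subunit c, followed at 435, Cox8a at 414, Cox4i1 at 385 and Atp5a1, the alpha subunit, at 379.9. At the low end, the tissue-restricted isoforms Cox7a1 (1.75 FPKM), Cox4i2 (0.759), Cox8b (0.0811) and Ndufa4l2 (0.0589) formed the bottom of the order, and the last pair never exceeded 0.30 FPKM in any library. Cox8b and Ndufa4l2 stayed under the required average of 0.5 FPKM in every population and were not tested, and Cox4i2 was not tested in CLPs, so that the tests covered 88 members in either of the other populations and 87 in CLPs.

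**Figure D1:**
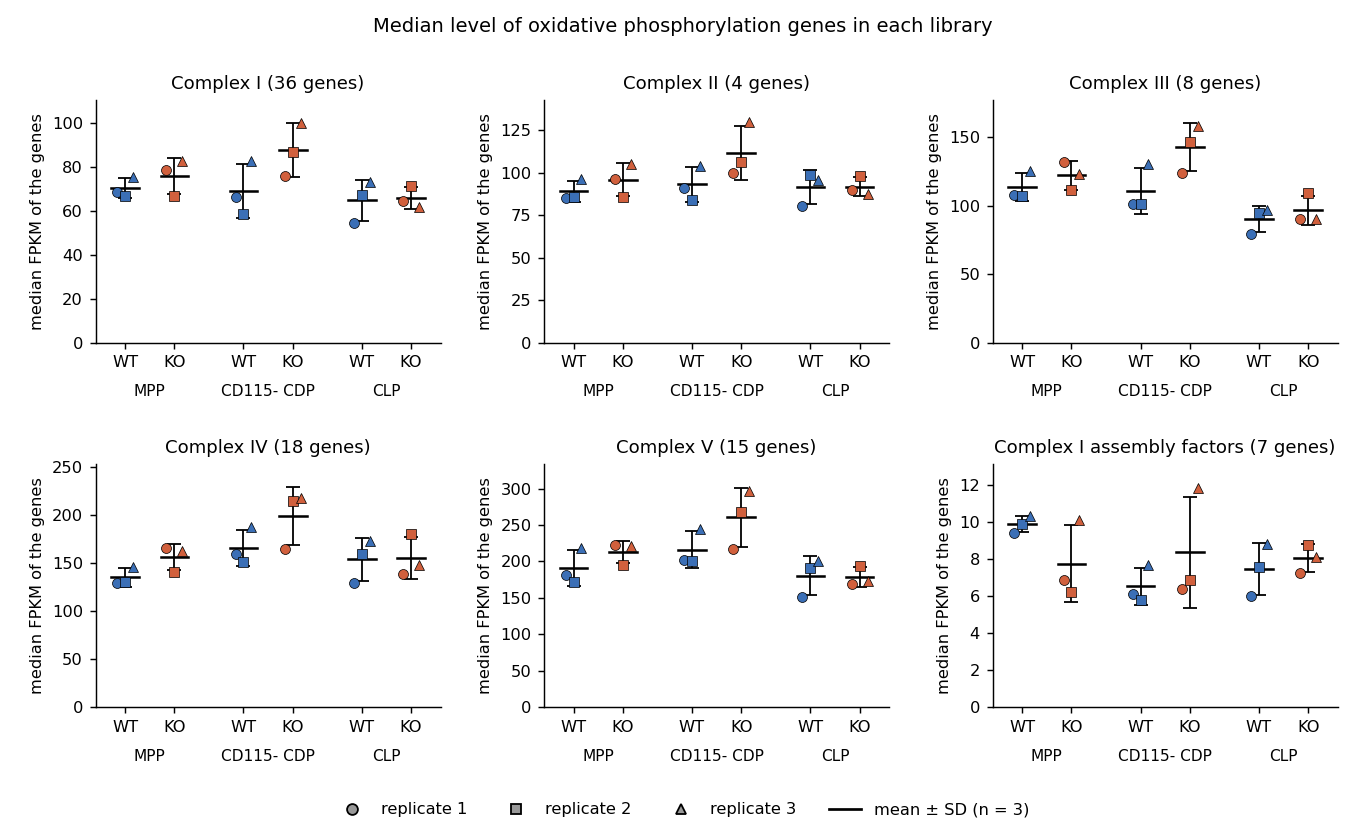
Median FPKM over the genes of each complex (y axis, starting at 0) in each of the 18 libraries, by population and genotype (x axis, WT in blue, KO-labelled in orange; symbols give the replicate number, bars the mean and SD of 3 libraries). In CD115- CDPs the KO-labelled means lay above the WT means for all 5 complexes, and replicate 3 was the highest library of its genotype. In CLPs the means of the genotypes differed by less than their SD for each complex.

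The first comparison asked whether deletion of Trim33 changed these genes within each population. KO-labelled libraries were compared with WT libraries by limma on log2(FPKM + 1), and genes with p no higher than 0.05 after Benjamini-Hochberg adjustment over all genes tested were called. A log2 difference on this scale understates the change of a gene with a low FPKM.

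In CD115- CDPs the members lay higher in the KO-labelled libraries almost as a block, but none passed the test without pairing. Of 88 members tested, 83 had a log2 difference above 0, with a median of 0.31, whereas 40.0% of all 12229 genes were above 0 and their median was -0.07. The FPKM of a library summed to 536524 to 588035 in KO-labelled and 508879 to 531153 in WT CD115- CDPs. Rescaling each library to the same sum (TPM) gave a smaller members' median, stated in the closing section. The number called was 0 of 88 members, beside 0.106% of all genes, while 19 members had an unadjusted p under 0.05 in limma. With the replicate number as a block in the limma model 13 members were called and all 13 were higher in KO-labelled cells, beside 9.34% of all genes called in either direction and 3.78% called higher. For 20 members every KO-labelled value lay above every WT value, and for 0 the reverse held, against 7.68% of all genes higher and 10.6% lower without overlap. Same-numbered WT and KO-labelled libraries correlated at 0.437 to 0.790 in their deviations over genes, but so did differently numbered ones among replicates 1 and 2 (0.381 and 0.663), whereas replicate 3 against the others gave -0.784 to -0.478. The numbers thus set replicate 3 apart more than they distinguish replicates 1 and 2.

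The difference was of similar size in every complex. The median log2 difference was 0.32 for complex I, 0.32 for complex II, 0.32 for complex III, 0.32 for complex IV and 0.31 for complex V, and all 36 complex I, 4 complex II, 8 complex III and 15 complex V genes were above 0. In complex IV all 12 widely expressed genes were above 0, while 3 of the 4 restricted isoforms tested were below. The members called with the replicate block were 4 of complex I (Ndufa12, Ndufab1, Ndufb2 and Ndufb6), 1 of complex II (Sdhd), 2 of complex III (Uqcr11 and Uqcrq), 4 of complex IV (Cox6b1, Cox7a2, Cox7b and Ndufa4) and 2 of complex V (Atp5b and Atp5g1). Of the 50-base words of their transcripts, 31.6% for Ndufb6, 17.7% for Ndufa12 and 11.1% for Atp5g1 also occur in other genes.

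Atp5b read 590, 583 and 647 FPKM in WT and 773, 855 and 860.4 in KO-labelled CD115- CDPs. Every KO-labelled library lay above every WT library, and the ratio of the means was 1.37 (607 ± 34.7 and 829 ± 49.2 FPKM, log2 difference 0.45, limma adjusted p = 0.263, and 0.0309 with the replicate block). Sdhd, whose promoter is printed above, read 70.3, 74.9 and 83.1 in WT and 90.8, 103 and 105 in KO-labelled libraries, again without overlap (log2 difference 0.38, SE 0.129, limma adjusted p = 0.408, and 0.0462 with the block). The groups were thus apart for both genes, by an amount that the unpaired fit did not separate from the spread.

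Ndufa4, a subunit now assigned to complex IV, had the largest difference of all members in this population. It read 171, 156 and 255 FPKM in WT and 228, 277 and 449 in KO-labelled CD115- CDPs (log2 difference 0.69, SE 0.297, limma adjusted p = 0.484, and 0.0244 with the block). The groups overlapped, since WT replicate 3 exceeded KO-labelled replicate 1, yet within each replicate number the KO-labelled library was the higher. Ndufab1, the mitochondrial acyl carrier protein that is also a complex I subunit, followed with a log2 difference of 0.62 (SE 0.195, limma adjusted p = 0.397, and 0.0300 with the block).

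Among the core genes of complexes I and III, the difference ranged from 0.09 for Ndufs1 to 0.34 for Ndufv1 in complex I. It was 0.33 for Uqcrc1, 0.28 for Uqcrc2 and 0.25 for the Rieske protein Uqcrfs1 in complex III. It was 0.28 for Cox4i1, 0.27 for Cox5a and 0.31 for Cox5b, nuclear subunits of complex IV whose catalytic core is encoded in the mitochondrial genome. None of the genes named in this paragraph so far was called with or without the block. The carrier Cyc1, outside the group, read 109 ± 9.89 FPKM in WT and 142 ± 8.82 in KO-labelled libraries (log2 difference 0.39, SE 0.124, limma adjusted p = 0.404, and 0.0481 with the block).

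Other abundant housekeeping groups had medians above 0 in the same libraries. The median log2 difference was 0.34 over 102 cytoplasmic ribosomal protein genes (38 higher and 2 lower with the block), 0.29 over 77 mitochondrial ribosomal protein genes (15 higher, 0 lower) and 0.25 over 39 proteasome subunit genes (5 higher, 0 lower). Of 23 glycolytic genes 6 were higher with the block and 0 lower (26.1%, beside 9.34% of all genes, median 0.23), among them Ldha. Of 17 genes of the tricarboxylic acid cycle 2 were higher and 0 lower (11.8%, median 0.21). Of 33 assembly factors of complexes III to V, 1 (Sco2) was higher with the block (3.03%). Of the 14 regulators tested only Myc was called with the block (7.14%), with 94.7 ± 14.7 FPKM in WT and 143 ± 9.53 in KO-labelled libraries (log2 difference 0.60, SE 0.153, limma adjusted p = 0.324, and 0.0392 with the block).

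With replicate 3 of both genotypes left out, an alternative chosen after seeing the data, the members' median difference in CD115- CDPs was 0.32. The number of members called was then 0 without the block. The monocyte markers moved with genotype in the same libraries: the 6 genes summed to 109 to 957 FPKM in WT and 22.8 to 135 in KO-labelled libraries, with 4 of 5 tested called lower with the block. The neutrophil markers summed to 628 to 4179.9 in WT and 742 to 3939.5 in KO-labelled libraries. None of these 8 was called with or without the block, nor any of 6 B cell markers. With the block 1 of 2 T cell markers was called lower, and of 5 erythroid markers 1 was higher and 1 lower. Without it none of these was called. No marker of the monocyte or neutrophil list was at 0 in all libraries, and the part of cell make-up or cell state in the members' values was not tested.

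In MPPs the members also lay slightly higher in the KO-labelled libraries while most other genes lay lower, and none was called. Of 88 members 62 had a log2 difference above 0 (median 0.12), beside 37.0% of 12372 genes (median -0.11). The count called by limma was 0 of 88, beside 3.84% of all genes, and 21 members had an unadjusted p under 0.05. Values did not overlap for 21 members that were higher and 2 that were lower in KO-labelled MPPs, against 6.98% and 23.3% of all genes. Other lists lay above 0 in these libraries too. They were 89 of 102 cytoplasmic ribosomal protein genes (median 0.11), 29 of 39 proteasome subunit genes (0.14) and 12 of 17 tricarboxylic acid cycle genes (0.13). The median was 0.03 for mitochondrial ribosomal protein genes, 0.07 for glycolytic genes and -0.13 for assembly factors of complexes III to V. KO-labelled replicate 3 was the only KO-labelled MPP library with Trim33 below the WT values. With that library left out, 9 members were called higher and 8 lower, beside 54.0% of all genes.

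By complex, the median log2 difference in MPPs was 0.11 for complex I, 0.10 for complex II, 0.14 for complex III, 0.21 for complex IV and 0.18 for complex V, where 14 of 15 genes were above 0. The assembly factors lay the other way, with 6 of 7 below 0 and a median of -0.07. Atp5g3, a subunit c gene, had the smallest adjusted p of the group. It read 236 ± 8.48 FPKM in WT and 298 ± 15.3 in KO-labelled MPPs, with no overlap (log2 difference 0.33, SE 0.0739, limma adjusted p = 0.0621). Atp5a1 did not pass the threshold either, at 361 ± 4.85 against 431 ± 8.37 FPKM (log2 difference 0.25, SE 0.0622, limma adjusted p = 0.0782).

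The 2 members whose MPP values were wholly lower in KO-labelled libraries were Cox6b2 and Atp5s. Cox6b2, the testis-enriched isoform of subunit 6b, read 17.9, 19.2 and 22.1 FPKM in WT and 14.5, 11.5 and 12.7 in KO-labelled MPPs (log2 difference -0.58, SE 0.133, limma adjusted p = 0.0665). Atp5s, a protein related to the coupling factor B of the synthase, read 5.59, 5.60 and 5.91 in WT and 2.68, 2.51 and 5.35 in KO-labelled MPPs (log2 difference -0.62, SE 0.239, limma adjusted p = 0.180). Replicate 3 of the KO-labelled MPPs lay close to WT for Atp5s, and the same library was the highest KO-labelled value for Ndufaf1, Ndufaf3 and Ndufs1. Without it, Atp5s had a log2 difference of -0.90 (limma adjusted p = 0.0012), Ndufaf3 one of -0.79 (0.0032) and Uqcrfs1 one of 0.50 (0.0023). The KO-labelled libraries kept in that fit, replicates 1 and 2, read 9.71 and 11.7 FPKM of Trim33, not below the WT range of 8.78 to 10.4. Replicate 3, which was left out, read 4.80.

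The erythroid markers fell in the same comparison, 9 of 10 being called lower in KO-labelled MPPs, as were 3 of 8 neutrophil and 4 of 6 monocyte markers, 1 of 1 T cell marker tested and 0 of 6 B cell markers. No erythroid marker was at 0 in all MPP libraries. Their part in the members' values was not tested.

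In CLPs the members' median lay close to that of all genes, and single members stood out instead. Of 87 members tested, 52 had a log2 difference above 0 with a median of 0.04, beside 51.2% and 0.01 for all 12339 genes. By limma 4 members were called, 2 higher (Ndufaf4 and Atp5s) and 2 lower (Cox6a2 and Ndufaf3), which is 4.60% of the members beside 14.3% of all genes (5.41% higher and 8.92% lower). With the replicate block 7 were called, 8.05% beside 20.9% (8.44% higher and 12.5% lower). These were the same 4, with Ndufa4 and Cox7b higher and Cox6b2 lower. The median was -0.02 for complex I, 0.04 for complex II, 0.09 for complex III, 0.03 for complex IV and 0.06 for complex V, and no gene of complexes I, II, III or V was called in either fit. Non-overlapping values were found for 5 members that were higher and 3 that were lower, against 15.3% and 18.6% of all genes.

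**Figure D2:**
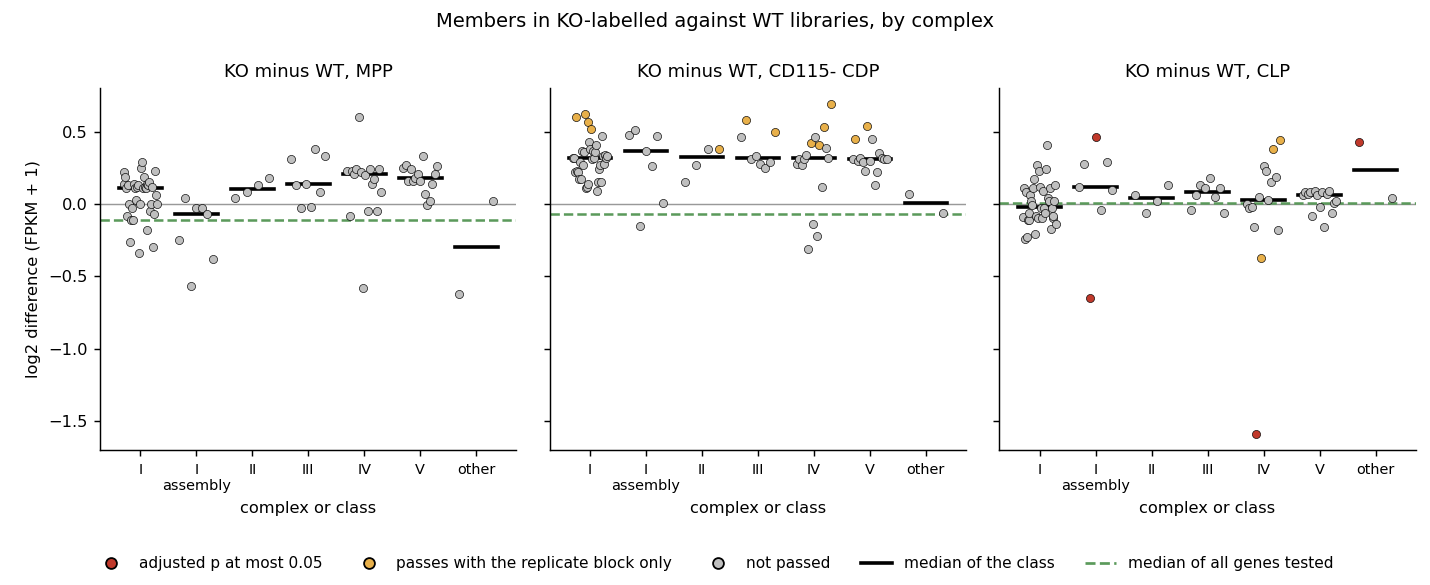
Log2 difference of FPKM + 1 between KO-labelled and WT libraries (y axis) for each tested member (points) by complex or class (x axis) in MPPs, CD115- CDPs and CLPs. Red points passed a limma adjusted p of 0.05, yellow points passed only with the replicate block (marked for CD115- CDPs and CLPs), black bars are class medians and the dashed line is the median of all genes tested. The class medians of complexes I to V sit at 0.31 to 0.32 in CD115- CDPs and near 0 in CLPs, where Cox6a2 lies at -1.59.

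Cox6a2 had the largest change of any member in any genotype comparison. It encodes the isoform of complex IV subunit 6a known from heart and skeletal muscle, and it is also listed among genes of mouse plasmacytoid dendritic cells. The gene lies at chr7:128205435-128206366 (GRCm38.p6), where the annotated gene Itgad overlaps it. It read 333, 371 and 356 FPKM in WT CLPs and 103, 127 and 119.8 in KO-labelled CLPs. All KO-labelled libraries lay far below all WT libraries, the mean being 0.330 of the WT mean (log2 difference -1.59, SE 0.111, limma adjusted p = 4.3e-05), and the call held in all 13 alternatives tried. Itgad itself read 3.31 to 4.44 FPKM in WT and 1.01 to 1.30 in KO-labelled CLPs, and 3.3% of the 50-base words of the Cox6a2 transcripts also occurred in other genes. Genes known from plasmacytoid dendritic cells were lower in the same libraries: Siglech read 145 to 216 FPKM in WT and 7.67 to 9.24 in KO-labelled CLPs, and Irf8 read 992 to 1132 and 147 to 190. Both also read lower in KO-labelled MPPs, where Cox6a2 read higher (Irf8 73.6 to 79.4 and 17.8 to 50.4, Siglech 1.59 to 2.04 and 0.46 to 0.73). In CD115- CDPs, where Cox6a2 was not called, Siglech read 30.4 to 80.3 in WT and 3.05 to 10.4 in KO-labelled libraries. Irf8 overlapped there, at 236 to 831 and 89.1 to 282. Their part in the Cox6a2 value was not tested.

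The widely expressed partner Cox6a1 was not called in the same libraries. It read 264, 351 and 357 FPKM in WT and 296, 296 and 269.6 in KO-labelled CLPs, with overlapping groups (log2 difference -0.16, SE 0.137, limma adjusted p = 0.481). Cox6a2 made up 52.4% ± 3.04 (SD, n = 3) of the summed FPKM of the pair in WT CLPs and 28.9% ± 2.65 in KO-labelled CLPs. The sum of the pair was 677 ± 70.1 FPKM in WT and 404 ± 17.4 in KO-labelled CLPs.

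In the other populations no difference of Cox6a2 was called. In MPPs Cox6a2 read 17.2, 16.6 and 18.4 FPKM in WT and 25.8, 21.3 and 35.2 in KO-labelled libraries, so that all KO-labelled values were the higher, without passing the test (log2 difference 0.60, SE 0.182, limma adjusted p = 0.121). In CD115- CDPs it read 214, 178 and 69.6 in WT and 141, 159 and 62.3 in KO-labelled libraries (log2 difference -0.31, SE 0.518, limma adjusted p = 0.894, and 0.137 with the block). Replicate 3 was low in both genotypes of the CD115- CDPs, and within each replicate number the KO-labelled library was the lower. Cox6a2 made up 4.97% ± 0.0989 of the pair in WT MPPs and 27.5% ± 12.5 in WT CD115- CDPs.

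**Figure D3:**
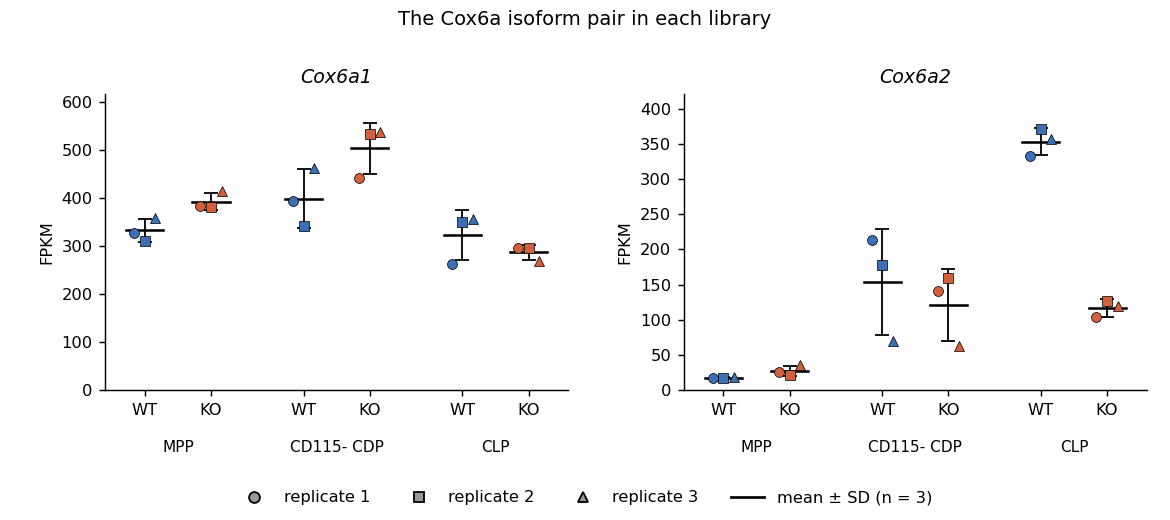
FPKM (y axes, starting at 0) of Cox6a1 and Cox6a2 in each library by population and genotype (x axis; WT in blue, KO-labelled in orange, symbols for replicate numbers, bars for mean and SD of 3 libraries). The WT CLP libraries read 333 to 371 FPKM of Cox6a2 and the KO-labelled CLP libraries 103 to 127, whereas Cox6a1 lay between 264 and 538 in all 18 libraries.

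The assembly factors Ndufaf3 and Ndufaf4, which act together at an early step of complex I assembly, moved in opposite directions in CLPs. Ndufaf3 read 12.4, 13.5 and 14.9 FPKM in WT and 6.90, 9.97 and 8.29 in KO-labelled CLPs (log2 difference -0.65, SE 0.143, limma adjusted p = 0.0196). Ndufaf4 read 5.09, 4.13 and 5.27 in WT and 7.24, 6.78 and 6.94 in KO-labelled CLPs (log2 difference 0.46, SE 0.122, limma adjusted p = 0.0401). Neither gene overlapped between the genotypes. The Ndufaf3 call was lost, at limma adjusted p of up to 0.0709, when WT replicate 2, WT replicate 3, KO-labelled replicate 1 or KO-labelled replicate 3 was left out.

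The Ndufaf4 call was lost, at limma adjusted p of up to 0.136, with any library but WT replicate 1 left out, and also with no filter on low values and with TPM scaling. The other 5 assembly factors were not called in CLPs. Their log2 differences ran from -0.04 for Ndufaf5 to 0.29 for Ndufaf6.

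Atp5s read 3.26, 2.83 and 2.92 FPKM in WT and 4.17, 4.56 and 4.45 in KO-labelled CLPs (log2 difference 0.43, SE 0.114, limma adjusted p = 0.0396). All KO-labelled values were the higher, but the call was lost under the same changes as that of Ndufaf4, at limma adjusted p of up to 0.145. Ndufa4 read 161, 189 and 204 FPKM in WT and 235, 293 and 225 in KO-labelled CLPs, without overlap (log2 difference 0.44, SE 0.138, limma adjusted p = 0.0711, and 0.0375 with the block). Ndufs1, the largest core subunit of complex I, read 28.2, 22.2 and 27.3 against 32.5, 38.1 and 33.5 FPKM and stayed just outside the threshold (log2 difference 0.41, SE 0.121, limma adjusted p = 0.0564, and 0.0530 with the block).

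**Figure D4:**
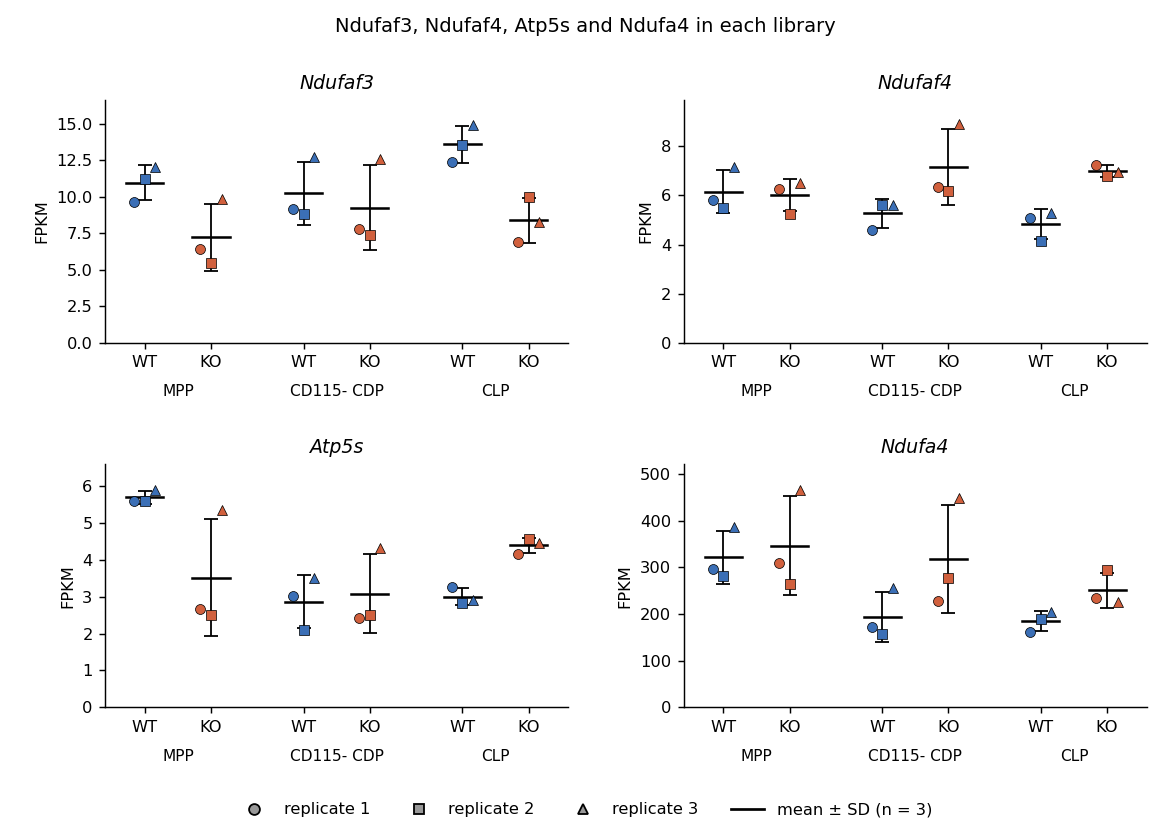
FPKM (y axes, starting at 0) of the complex I assembly factors Ndufaf3 and Ndufaf4, of Atp5s and of Ndufa4 in each library, by population and genotype (x axis; WT in blue, KO-labelled in orange, symbols for replicate numbers, bars for mean and SD of 3 libraries). In CLPs the genotypes do not overlap for any of the 4 genes, with Ndufaf3 lower and the other 3 higher in KO-labelled libraries. In MPPs replicate 3 of the KO-labelled libraries lies apart from the other KO-labelled values of Atp5s, at 5.35 against 2.51 and 2.68 FPKM.

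None of the other core genes of the 5 complexes was called in CLPs. The log2 difference was -0.10 for Ndufs7, -0.08 for Ndufs8, 0.02 for Ndufs3 and 0.13 for Ndufv2. It was 0.06 for Sdha, -0.06 for Sdhb, 0.02 for Sdhc and 0.13 for Sdhd in complex II. It was 0.06 for Atp5a1, 0.08 for Atp5b and 0.07 for Atp5c1 in complex V. The SE of these differences was 0.0979 to 0.167.

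Around the group, Myc was higher in KO-labelled CLPs, at 216 ± 15.2 against 129 ± 6.84 FPKM in WT (log2 difference 0.74, SE 0.0998, limma adjusted p = 0.00183). It was the only 1 of 13 regulators tested that was called (7.69%, beside 14.3% of all genes). In MPPs Myc lay the other way and was not called. It read 67.0, 75.7 and 129 FPKM in KO-labelled MPPs and 131 ± 6.14 in WT MPPs (log2 difference -0.58, SE 0.235, limma adjusted p = 0.195). Of 17 tricarboxylic acid cycle genes 3 were called in CLPs (17.6%, near the share of all genes), all higher: Suclg2 (log2 difference 0.53), Pdha1 (0.45) and Dld (0.41). Of 23 glycolytic genes 3 were higher (Pfkfb3, Aldoa and Pfkm) and 2 lower (Ldhb and Pfkp), which is 21.7%. The cytoplasmic ribosomal protein genes had a median of 0.32, with 3 of 101 called higher and 3 lower (5.94%), and the mitochondrial ribosomal protein genes one of 0.05. The carriers Cyc1 (-0.01) and Cycs (0.19) were not called. In the marker lists, 4 of 6 erythroid and 3 of 4 monocyte genes were called lower and 0 of 8 neutrophil genes (7 with the block). In the same lists 2 of 2 T cell genes tested were lower and 1 of 6 B cell genes higher. The erythroid markers summed to 35.7 to 57.7 FPKM in WT and 6.08 to 10.2 in KO-labelled CLPs, the monocyte markers to 174 to 205 and 11.9 to 20.9, and the neutrophil markers to 393 to 971 and 225 to 389. Their part in the members' values was not tested.

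With a log2 difference of at least 1 required as well, as the study did, 0 members were called in MPPs (1.48% of all genes), 0 in CD115- CDPs (0.106%) and 1, Cox6a2, in CLPs (3.52%).

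The effect of genotype was next compared between populations by an F test of the interaction in limma over all 18 libraries. No member was called, 0 of 88 beside 2.45% of 12421 genes, and 7 had an unadjusted p under 0.05. With the replicate block 2 were called, Cox6a2 (limma adjusted p = 0.000176) and Atp5s (0.0433), beside 8.67% of all genes. That fit also pairs the MPP libraries by number. In MPPs the pair of replicates 1 correlated at only 0.0382, and a differently numbered pair at 0.262. Without the block Cox6a2 came closest (limma adjusted p = 0.0737), and its effect in CLPs minus that in MPPs was -2.19 on the log2 scale (SE 0.512). Cox8a followed (adjusted p = 0.160), whose log2 difference was -0.18 in CLPs against 0.24 in MPPs and 0.32 in CD115- CDPs, and then Atp5s (adjusted p = 0.167). Cox6a2 passed without CD115- CDP replicate 3 of WT (limma adjusted p = 0.00897) or of KO-labelled libraries (0.0208), and Atp5s without KO-labelled MPP replicate 3 (0.0154).

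The WT populations were then set side by side. Each population is 1 table, so a difference between populations and a difference between tables cannot be told apart, and the 3 comparisons share WT libraries, also with those of genotype. Where the replicate block is given here, it ties libraries of the same number across populations, a pairing whose correlation was not measured. Few members were called in any of the 3. Between CLPs and MPPs 1 member was called higher and 7 lower of 88 (9.09%, beside 25.0% of 12528 genes, 10.7% higher and 14.4% lower). This counts Cox4i2, which passed the filter on low values only through MPPs and CD115- CDPs and not through CLPs. Between CD115- CDPs and MPPs 1 was higher and 3 lower (4.55%, beside 21.9%, 5.14% higher and 16.8% lower), and between CD115- CDPs and CLPs 2 were higher and 1 lower (3.41%, beside 10.9%, 2.71% higher and 8.16% lower). The median log2 difference of the members was -0.12, 0.02 and 0.14, beside -0.05, -0.10 and -0.08 over all genes. With CD115- CDP replicate 3 left out, 14 members were called between CD115- CDPs and MPPs, 1 higher and 13 lower, beside 51.9% of all genes.

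Cox6a2 was the member that separated the populations most. Its mean was 17.4 ± 0.921 FPKM in WT MPPs, 154 ± 75.1 in WT CD115- CDPs and 353 ± 19.3 in WT CLPs. The values of the 3 populations did not overlap. CLPs exceeded MPPs by 20.3-fold (log2 difference 4.27, SE 0.344, limma adjusted p = 6.0e-05) and CD115- CDPs exceeded MPPs by 8.84-fold (log2 difference 2.92, limma adjusted p = 0.000531). CD115- CDPs lay below CLPs (log2 difference -1.34, limma adjusted p = 0.0415), a call that was lost with the block (0.0538) and passed in 6 of 16 alternatives, and without CD115- CDP replicate 3 the difference was -0.85 (limma adjusted p = 0.000599).

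Of the other restricted isoforms, Cox4i2, the lung-enriched and oxygen-responsive form of subunit 4, read 1.26, 1.49 and 1.38 FPKM in WT MPPs, 0.46, 0.22 and 1.80 in WT CD115- CDPs and 0.07 to 0.08 in WT CLPs. It passed the filter on low values only through MPPs and CD115- CDPs, so no test is given for it. Its call enters only the counts and the list of calls followed through the alternatives. Even in MPPs it made up only 0.385% ± 0.0404 of the summed FPKM of Cox4i1 and Cox4i2. Cox6b2 was lower in CLPs, from 19.8 ± 2.15 FPKM in WT MPPs to 10.1 ± 1.65 in WT CLPs (log2 difference -0.90, SE 0.208, limma adjusted p = 0.0133), and its share of the Cox6b pair from 8.94% ± 0.382 to 4.91% ± 1.22. Cox7a1, the heart and muscle form of subunit 7a, stayed between 1.03 and 2.87 FPKM in WT libraries and was not called. The 3 subunit c genes kept nearly fixed shares, Atp5g2 making up 56.3% ± 0.282 of their sum in WT MPPs, 53.2% ± 1.15 in WT CD115- CDPs and 52.9% ± 1.22 in WT CLPs. However, 38.3% of the 50-base words of the Atp5g2 transcripts also occur in other genes, so its level and share depend on how reads were assigned.

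Ndufa4 was lower in CD115- CDPs and CLPs than in MPPs. It read 297, 281 and 387 FPKM in WT MPPs, 171, 156 and 255 in WT CD115- CDPs and 161, 189 and 204 in WT CLPs. The MPP values lay above all others, with a log2 difference of -0.79 for CLPs (SE 0.199, limma adjusted p = 0.0202) and -0.75 for CD115- CDPs (SE 0.199, limma adjusted p = 0.0288), calls that passed in 12 and 11 of 16 alternatives. Atp5s was lower in both as well, with differences of -0.74 (limma adjusted p = 0.00771) and -0.81 (limma adjusted p = 0.00612). Ndufaf1, an assembly factor of the complex I membrane arm, read 9.94 ± 0.475 FPKM in WT MPPs and 5.21 ± 1.49 in WT CD115- CDPs (log2 difference -0.84, SE 0.185, limma adjusted p = 0.0130).

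Of the 8 complex III genes 2 were called lower in CLPs than in MPPs (25.0%), and of these Uqcrb passed with the block. Of all genes 25.0% were called in either direction and 14.4% were called lower. Uqcrc1, a core protein, read 133 ± 7.38 FPKM in WT MPPs and 105 ± 7.18 in WT CLPs (log2 difference -0.34, limma adjusted p = 0.0489), a call that passed in 4 of 16 alternatives and was lost with the block (0.0586). Uqcrb, a small subunit, read 107 ± 8.79 and 76.1 ± 8.65 (log2 difference -0.49, limma adjusted p = 0.0296, passing in 11 of 16 alternatives), with the limit that 25.5% of the 50-base words of its transcripts occur in other annotated genes, so its reads could be split among copies. Uqcrfs1, the Rieske iron-sulfur protein, was higher in WT CD115- CDPs than in WT CLPs, at 90.2 ± 4.23 against 64.9 ± 9.62 FPKM (log2 difference 0.48, limma adjusted p = 0.0362), as was Atp5d, the delta subunit of the synthase head (log2 difference 0.39, limma adjusted p = 0.0418, and 0.0520 with the block). These calls passed in 9 and 6 of 16 alternatives. Atp5d was also lower in CLPs than in MPPs (log2 difference -0.32, limma adjusted p = 0.0467, and 0.0515 with the block), a call that passed in 4 of 16 alternatives.

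**Figure D5:**
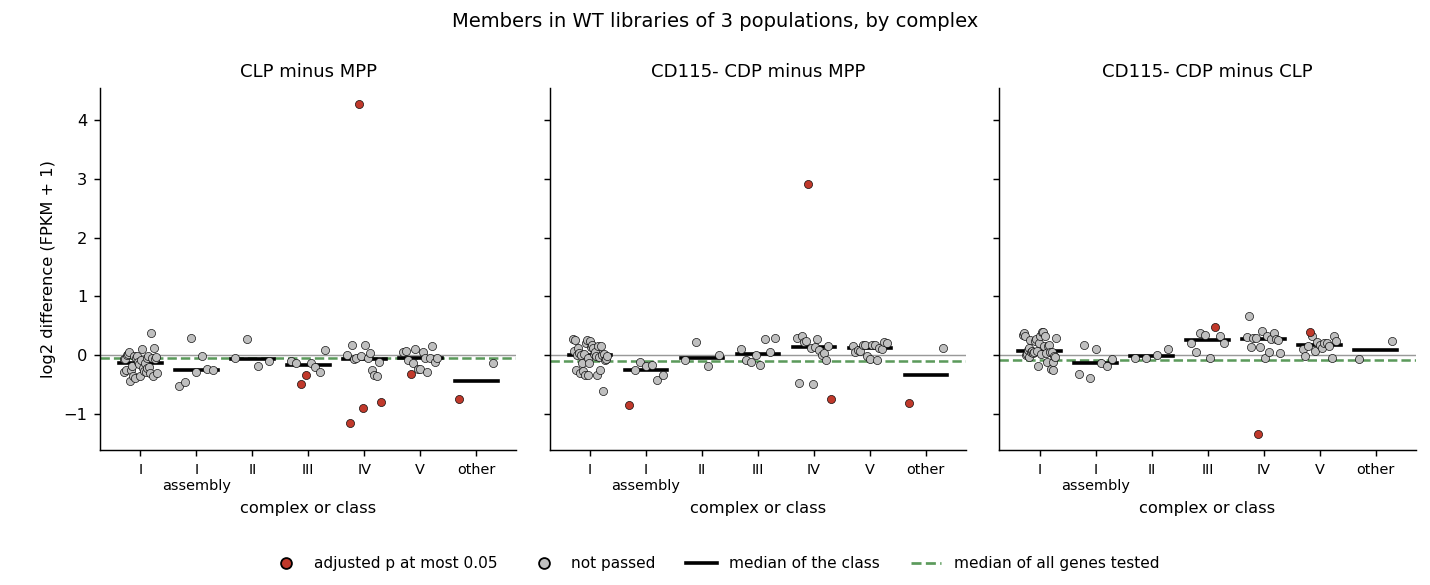
Log2 difference of FPKM + 1 between WT libraries of pairs of populations (y axis) for each tested member (points) by complex or class (x axis), with 3 libraries per population. Red points passed a limma adjusted p of 0.05, black bars are class medians and the dashed line is the median of all genes tested. Cox6a2 stands far above the other members against MPPs, at 4.27 in CLPs and 2.92 in CD115- CDPs.

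Among neighbouring lists, some glycolytic genes were lower in WT CLPs than in WT MPPs, 9 of 23 being called lower and 0 higher (39.1%, median log2 difference -0.49), beside 14.4% of all genes called lower, and 5 of the 23 lay above 0. Of 17 tricarboxylic acid cycle genes 1 was higher and 2 lower (17.6%, beside 25.0% of all genes). Of 33 assembly factors of complexes III to V, 6 were called lower and 0 higher (18.2%, beside 25.0% of all genes called and 14.4% called lower, median -0.25). Among them were Sco2, which delivers copper to complex IV (log2 difference -0.99, limma adjusted p = 0.00463), and Bcs1l, which inserts the Rieske protein into complex III (-0.75, limma adjusted p = 0.00454). Of 101 cytoplasmic ribosomal protein genes 63 were lower and 5 higher (median -0.46). Of 13 regulators 2 were called (15.4%, below the share of all genes). Nrf1 was higher in CLPs, at 25.4 ± 1.85 against 16.4 ± 0.662 FPKM (log2 difference 0.60, limma adjusted p = 0.00258), and Gabpb1, a subunit of GABP, was lower (-0.55, limma adjusted p = 0.0332). The erythroid markers were lower as well, 10 of 10 in CLPs and 10 of 10 in CD115- CDPs against MPPs, as were 5 of 8 and 3 of 8 neutrophil markers. In CLPs against MPPs 6 of 6 B cell markers (median 3.32) and 2 of 3 T cell markers were called higher, and 1 of 6 monocyte markers lower. Such transcripts may be those of the sorted progenitors themselves. The part of cell make-up or cell state in the members' differences was not tested.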

How the data were processed

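RNA was measured in 18 libraries of sorted progenitors. Per the methods of the study and the labels, poly-A RNA was read as single-end 50-base reads on a BGISEQ-500, filtered with SOAPnuke, mapped to mm10 with HISAT2 2.0.4 and, for expression, aligned with Bowtie2 2.2.5 and quantified with RSEM 1.2.12. The authors deposited FPKM per gene, 1 table per population, with 0 columns left unmapped here. No read counts were used, so the depth of each library is unknown and no counting interval is given.

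Groups follow the sample titles. The members, gene lists and tests were chosen with earlier results of these data known. FPKM were tested as log2(FPKM + 1) in limma 3.58.1 (R 4.3.3, trended variance), for genes averaging 0.5 FPKM or more in the libraries of the fit, with Benjamini-Hochberg adjustment over all genes tested. Genotype was fitted within each population, the WT populations over 9 WT libraries and the interaction over all 18. The script was tested on simulated data. Libraries with the same replicate number correlated above 0.1 in every pair of CD115- CDPs (0.437 to 0.790) and CLPs (0.131 to 0.400), measured over genes as deviations from the group means, but not in every pair of MPPs (0.0382 to 0.482). In CD115- CDPs differently numbered libraries of replicates 1 and 2 correlated too (0.381 and 0.663). The replicate block is given beside results where it changes a call in the first 2 populations. It is also given for the interaction and for some WT comparisons, fits that include the MPPs. In the WT comparisons the block ties libraries of the same number across populations. The correlations above were measured only within a population, so they do not bear on that pairing. Alternatives were a pseudocount of 0.1, no filter, a filter at 5 FPKM, TPM, median ratio scaling, the block, no variance trend, an added log2 fold of at least 1 and leaving out each library.

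Genes named by rule were the catalytic core subunits, the isoform families, the 5 largest called rises and falls of each comparison (where none was called, the 2 largest differences), Trim33, Cyc1, Cycs and up to 3 called regulators. Others were named after their values were seen. Positions came from RefSeq on GRCm38.p6, and shared 50-base words from GENCODE transcripts of the same assembly, where 21 of 90 members shared at least 10% of words with other genes. P-values set a difference against the spread between libraries of the same group. That spread was pooled over the groups of a fit and moderated by limma with a trend over all genes. In the block fits it was the spread left after the replicate number.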

Additional observations from a re-analysis of the deposited data

Results flagged for a closer look

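Among the 87 members tested in all 3 populations, 2 had KO-labelled values that lay wholly above WT in 1 population and wholly below WT in another, which is 2.30% of the members beside 3.93% of 11668 genes. Cox6a2 had a log2 difference of KO-labelled against WT of 0.60 in MPPs and -1.59 in CLPs. Atp5s had one of -0.62 in MPPs and 0.43 in CLPs. The opposite directions were what drew attention. The limma F test for a genotype effect that differs between populations gave adjusted p of 0.0737 for Cox6a2 and 0.167 for Atp5s, neither past the threshold. With the replicate block both passed (0.000176 and 0.0433). The block also pairs the MPP libraries by number, though 1 such pair correlated at only 0.0382. Cox6a2 also passed without CD115- CDP replicate 3 of WT (limma adjusted p = 0.00897) or of KO-labelled libraries (0.0208), and Atp5s without KO-labelled MPP replicate 3 (0.0154). Of the underlying genotype differences, both in CLPs were called and neither in MPPs, although the CLP call of Atp5s passed in 5 of 12 alternatives, and without KO-labelled MPP replicate 3 both were called in MPPs, Cox6a2 at a log2 difference of 0.41 (limma adjusted p = 0.0160) and Atp5s at -0.90 (0.00123). In MPPs the value of Atp5s rests on KO-labelled replicates 1 and 2 at 2.68 and 2.51 FPKM, while replicate 3 read 5.35. Trim33 read 9.71 and 11.7 FPKM in KO-labelled replicates 1 and 2, not below WT MPPs (8.78 to 10.4), and 4.80 in replicate 3.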

How the results depend on the processing

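All 19 gene results called, counting Cox4i2, kept their direction in every alternative that tested them. Of the 19, 6 passed in each other than the added fold, which was applied to numbers of called members. They were Cox6a2 between KO-labelled and WT CLPs, Cox6a2 in CLPs and in CD115- CDPs against MPPs, Atp5s in the same pair of comparisons (at -0.74 and -0.81 both short of a log2 fold of 1), and Cox4i2 in CLPs against MPPs. Cox4i2 passed the filter only through MPPs and CD115- CDPs and lay near the floor in CLPs, so its call says nothing about stability. Counts of called members were less stable. In MPPs the count of 0 became 3 with TPM and 2 with median ratio scaling, and 0 to 17 with a library left out, the 17 coming from leaving out KO-labelled replicate 3. In CD115- CDPs it became 13 with the replicate block and stayed at 0 with any library left out, also without both libraries of replicate 3 (chosen after seeing the data). In CLPs the 4 became 2 with no filter, 7 with the replicate block, 1 with a log2 fold of at least 1 as well, and 1 to 5 with a library left out. Between CLPs and MPPs the 8 became 4 with a filter at 5 FPKM, 2 with the added fold and 3 to 12 with a library left out, 3 without MPP replicate 3 and 12 without CD115- CDP replicate 3. Between CD115- CDPs and MPPs the 4 became 1 with the added fold and 2 to 14 with a library left out, 14 without CD115- CDP replicate 3. Between CD115- CDPs and CLPs the 3 became 1 with the replicate block, 1 with the added fold and 0 to 8 with a library left out, 8 without the same library. For the interaction the 0 became 2 with the replicate block (Cox6a2, limma adjusted p = 0.000176, and Atp5s, 0.0433) and 0 to 1 with a library left out. That block includes the MPPs, whose same-numbered libraries did not all correlate. The replicate block changed no member's call in MPPs. Each fit leaving out a library kept at least 2 libraries per group. The cause of these changes was not tested. Median ratio scaling moved the members' median in MPPs from 0.12 to 0.24, and TPM moved that in CD115- CDPs from 0.31 to 0.19. The tables hold no counts, so what depth limits could not be given.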
